A study of Mus musculus with 114 samples.

Results

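The glycolysis enzymes described here are 10 genes, taken by symbol along the pathway from glucose to lactate: Hk2, Pfkp, Pfkl, Aldoa, Gapdh, Pgk1, Pgam1, Eno1, Pkm and Ldha. All 10 were among the 29132 genes of the table, and all 10 passed the filter on low values, which left 10343 genes for testing. To examine how adipocytes respond to overfeeding, male C57BL/6J mice aged 6 weeks were placed on control chow (CD) or on a high fat diet (HFD), kept on it for 8, 20 or 34 weeks, and fasted for 6 h before collection. RNA came from the adipocytes of the perigonadal white adipose tissue (PGWAT), that is, the cells that floated after collagenase digestion, without a sort. There were 6 CD and 6 HFD mice at 8 weeks, 6 and 6 at 20 weeks, and 8 and 6 at 34 weeks, 38 mice in all, each with 1 merged library. Every group shared the strain, the sex and the fast. The diets of a time point were compared between mice of the same age, whereas 34-week mice were also older than 8-week mice. The methods name a pair of control chows without saying which mice ate which, so time, age, chow lot and day of collection cannot be told apart in a comparison between times. In RefSeq (GRCm38.p6) Hk2 lies at chr6:82725025-82774454, Pfkp at chr13:6579874-6649060, Pfkl at chr10:77986947-78009807, Aldoa at chr7:126795234-126800994 and Gapdh at chr6:125161852-125166467. Pgk1 lies at chrX:106187100-106203699, Pgam1 at chr19:41911871-41918665, Eno1 at chr4:150236708-150248879, Pkm at chr9:59656576-59679372 and Ldha at chr7:46842274-46855627, and reads were counted over the exons of each gene.

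Glycolysis breaks glucose down to pyruvate. Hexokinase traps glucose as glucose 6-phosphate, phosphofructokinase commits it to breakdown, aldolase splits the sugar, and the later enzymes harvest ATP and NADH before lactate dehydrogenase turns pyruvate into lactate and restores NAD+. In adipocytes the pathway also supplies glycerol 3-phosphate for triglyceride and acetyl units for fatty acid synthesis, and the glucose transporter Slc2a4 (GLUT4) and Hk2 are both known to respond to insulin. Genes of the pathway are known targets of HIF-1, which binds the core ACGTG, and of the carbohydrate-responsive factor encoded by Mlxipl.

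The promoter windows of 3 genes are shown, chosen after their values were seen, because the genes held the largest fall with HFD (Hk2), a rise with HFD at 3 times (Pgk1) and a diet difference that changed between times (Ldha), and because each window holds that core. Each is the 250 bases before an annotated start in RefSeq (GRCm38.p6), written 5′ to 3′ on the gene's strand, with capitals for ACGTG or its reverse complement. The windows lie at chr6:82774455-82774704 (minus strand, directly upstream of Hk2), chr7:46845554-46845803 (plus strand, within the span of Ldha because another annotated transcript starts further upstream) and chrX:106186850-106187099 (plus strand, directly upstream of Pgk1), and none overlaps an annotated exon.
Hk2: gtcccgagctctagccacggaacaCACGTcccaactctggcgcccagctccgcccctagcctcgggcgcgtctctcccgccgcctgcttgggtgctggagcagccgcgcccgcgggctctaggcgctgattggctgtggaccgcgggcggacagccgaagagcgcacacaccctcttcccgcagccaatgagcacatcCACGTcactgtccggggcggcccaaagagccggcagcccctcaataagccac
Ldha: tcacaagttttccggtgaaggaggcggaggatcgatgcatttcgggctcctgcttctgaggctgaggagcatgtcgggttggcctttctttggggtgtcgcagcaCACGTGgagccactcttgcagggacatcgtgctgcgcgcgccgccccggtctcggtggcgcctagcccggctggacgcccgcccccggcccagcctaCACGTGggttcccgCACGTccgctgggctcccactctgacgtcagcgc
Pgk1: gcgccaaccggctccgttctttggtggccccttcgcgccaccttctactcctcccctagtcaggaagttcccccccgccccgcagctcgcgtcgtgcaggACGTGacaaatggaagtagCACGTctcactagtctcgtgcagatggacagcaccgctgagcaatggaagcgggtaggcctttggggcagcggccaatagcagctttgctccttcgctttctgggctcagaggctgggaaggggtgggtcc

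The Ldha window held 5 matches to ACGTG, counting both strands, and the Hk2 and Pgk1 windows held 2 each, at separate places. In the Ldha window each of 2 CACGTG sites reads the same on both strands and so counts once per strand. Among 32851 such windows of all genes, 16.6% held ACGTG on either strand. Of the 16 windows of the 10 enzymes, 7 held it, and they belonged to 6 of the 10 genes. Windows of a gene can overlap: those of Aldoa at chr7:126799179-126799428 and chr7:126799255-126799504 hold the same site. The count of genes takes any window of a gene, so it is not on the footing of the 16.6%, which counts single windows. The sequence CACGTG, which contains ACGTG, stood in 6.02% of all windows and in 1 of the 16, that of Ldha, where it occurred at 2 sites. The sequence GCGTG stood in 28.2% of all windows and in 8 of the 16, among them overlapping windows of Eno1 that share matches. These matches describe the letters of the windows only.

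Values are CPM, the reads of a gene per 1000000 reads of its library, and library totals ran from 9275711 to 15480388 (median 12522298). At 8 weeks the HFD libraries (13201234 to 15480388 reads) were all deeper than the CD libraries (10562845 to 12611013 reads). Summed over 10 adipocyte markers, each mouse held 22500 to 93600 CPM, and 7 of the 10 were lower in HFD mice at 20 weeks and 9 at 34 weeks. Macrophage markers moved with diet and with time: of 10 that were listed, 7, 8 and 10 were higher in HFD mice at 8, 20 and 34 weeks, and 9 were higher in 34-week than in 8-week CD mice. Their summed level was 341 to 1690 CPM in CD and 1020 to 3020 CPM in HFD mice at 8 weeks, 940 to 3180 and 4250 to 8840 CPM at 20 weeks, and 1050 to 11800 and 4910 to 14400 CPM at 34 weeks, with none at 0 throughout. Markers of lipid-associated macrophages were higher in HFD mice for 8, 8 and 7 of 8 at the 3 times, endothelial markers for 8, 6 and 7 of 8, progenitor and fibroblast markers for 4, 7 and 4 of 7 and mural markers for 5, 4 and 3 of 6, whereas no T cell, B cell or epididymis marker passed the filter. CD mouse 1 at 20 weeks and CD mouse 5 at 34 weeks held the highest macrophage markers of their groups. Macrophages express glycolytic enzymes as well, and in whole-fraction RNA fewer cells of a type and less RNA per cell cannot be told apart. The part of other cells in the results was not tested beyond a fit that holds the mean macrophage marker level as a covariate, whose values are given beside the diet differences whose call it changes. With this covariate the genes called between diets, of 10343 tested, went from 4648 to 3782 at 8 weeks. They went from 5894 to 2763 at 20 weeks and from 4468 to 597 at 34 weeks, so a lost call is not particular to an enzyme.

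**Figure D1:**
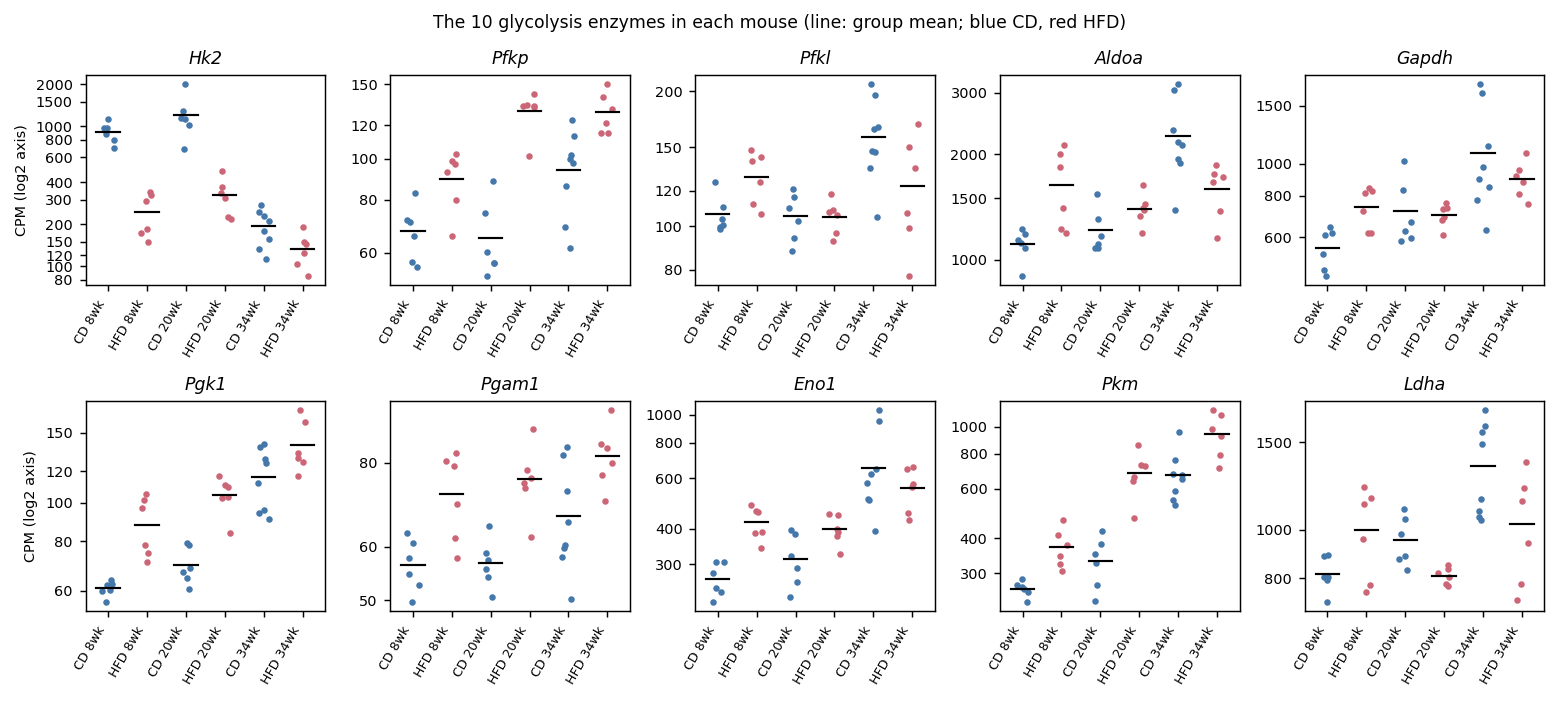
CPM of each of the 10 enzymes in each of the 38 mice (points, log2 axis, blue CD and red HFD), with the mean of each of the 6 groups as a line. Hk2 sits at or above 688 CPM in every CD mouse at 8 and 20 weeks and at or below 483 CPM in every other group, while Pkm climbs from at most 285 CPM in 8-week CD mice to at least 711 CPM in 34-week HFD mice.

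Compared per kilobase of exon, which corrects for gene length, Aldoa (299 CPM per kb) and Ldha (246) had the highest levels in 8-week CD mice, followed by Hk2 (152) and Gapdh (135). Pkm (52.7), Eno1 (49.7), Pgam1 (28.5), Pgk1 (27.1) and Pfkl lay in between, and Pfkp (5.03) was lowest. In 34-week HFD mice Aldoa (429 CPM per kb), Ldha (311) and Gapdh (218) led, Pkm had come to 188, and Hk2 stood at 22.3, above only Pfkl and Pfkp. The order of neighbours depended on the length used: with the longest transcript in place of all exons, Hk2 and Gapdh, Eno1 and Pkm, and Pgk1 and Pgam1 changed places in 8-week CD mice, and in 34-week HFD mice Pkm (387) passed Gapdh (274) and Pfkl (33.0) passed Hk2 (24.1).

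**Figure D2:**
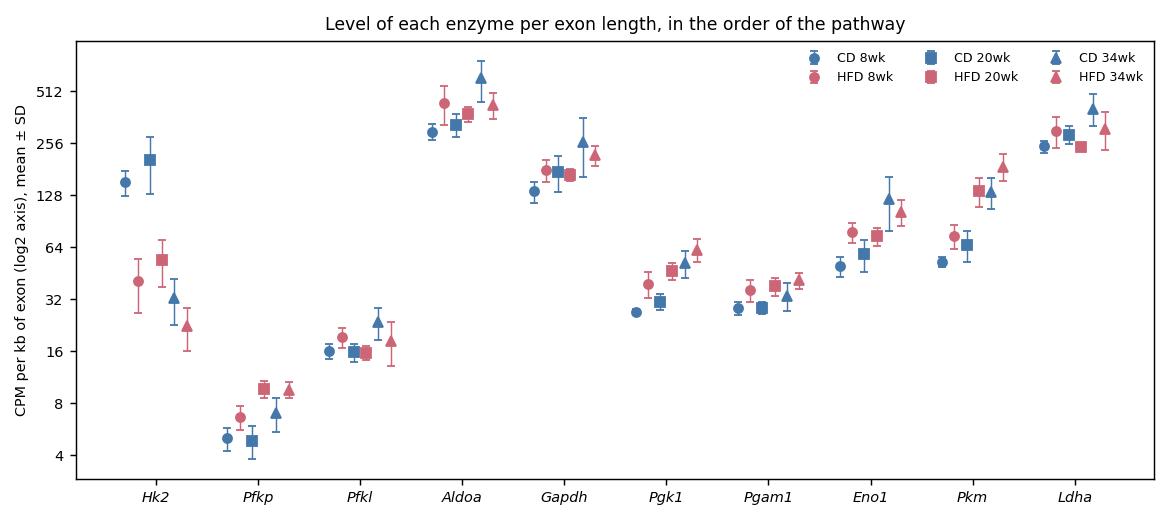
Mean CPM per kb of exon (log2 axis, bars show ± SD over mice) of the 10 enzymes in pathway order, for the 6 groups. Hk2 spans from 152 in 8-week CD mice to 22.3 in 34-week HFD mice, while the group means of Aldoa lie above those of the other enzymes in all 6 groups.

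As a share of reads, the 10 genes together took 0.421% in 8-week CD, 0.479% in 8-week HFD, 0.505% in 20-week CD, 0.473% in 20-week HFD, 0.665% in 34-week CD and 0.562% in 34-week HFD mice. Hk2 made up 21.5% of these reads in 8-week CD mice and 5.44% in 8-week HFD mice, 23.9% and 6.95% at 20 weeks, and 2.95% and 2.40% at 34 weeks. Pkm went the other way, from 6.27% in 8-week CD to 17.0% in 34-week HFD mice. These shares are not corrected for length.

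To compare the diets at each time, 1 limma fit on log2(CPM + 1) held all 6 groups, with Benjamini-Hochberg adjusted p-values taken across the 10343 genes and a threshold of 0.05. Log2 fold changes below are HFD against CD on that scale, with SE. At 8 weeks 6 enzymes were higher in HFD mice (Pfkp, Aldoa, Pgk1, Pgam1, Eno1 and Pkm), against 29.8% of all genes tested, and 1 was lower (Hk2), against 15.1%. At 20 weeks 4 were higher (Pfkp, Pgk1, Pgam1 and Pkm), against 38.3%, and Hk2 alone was lower, against 18.7%. At 34 weeks 4 were higher (the same 4 genes as at 20 weeks), against 27.5%, and 3 were lower (Pfkl, Aldoa and Ldha), against 15.7%. The median log2 fold change of the 10 was 0.41, 0.29 and -0.19 at the 3 times, against 0.11, 0.14 and 0.07 for all genes tested.

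The counts depended on how libraries were scaled. With TMM factors the all-gene median moved from 0.11 to 0.01 at 8 weeks, from 0.14 to -0.07 at 20 weeks and from 0.07 to -0.01 at 34 weeks. Of all genes called, 3083 of 4648 were higher in HFD mice at 8 weeks on library totals and 2332 of 4544 with TMM factors, 3957 of 5894 and 2711 of 6069 at 20 weeks, and 2840 of 4468 and 2317 of 4467 at 34 weeks. Under TMM factors 3, 3 and 2 of the 10 enzymes were higher in HFD mice and 1, 2 and 4 were lower. Pfkp was called higher at 20 and 34 weeks and Pkm at all 3 times under either scaling, although with median-of-ratios factors Pkm at 8 weeks had an adjusted p of 0.0511. Pgam1 was called higher at none of the 3 times with TMM factors.

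**Figure D3:**
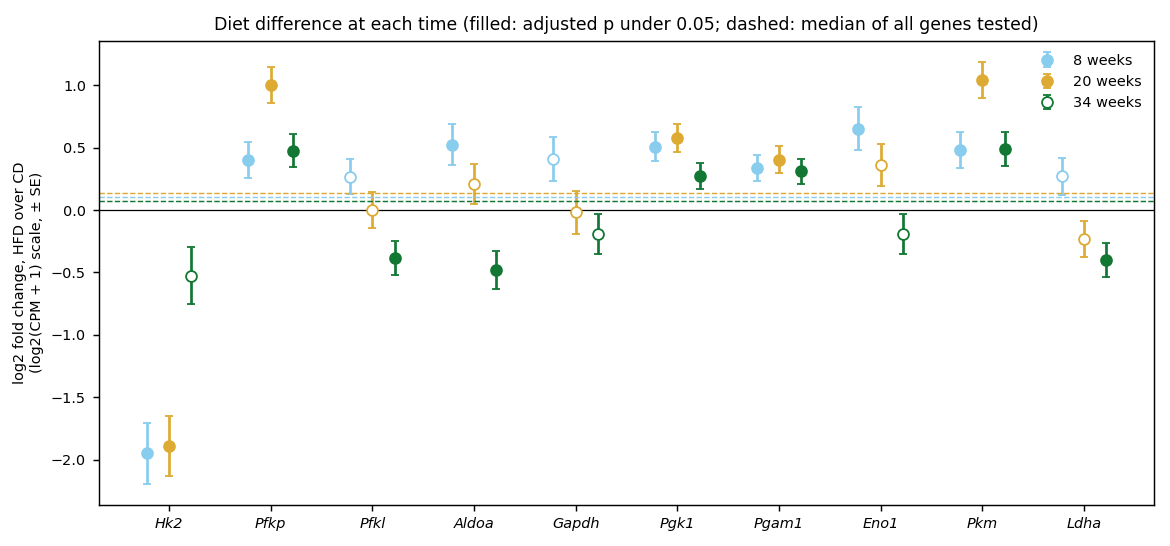
Log2 fold change of each enzyme, HFD against CD, with ± SE at 8, 20 and 34 weeks, on log2(CPM + 1). Filled points passed an adjusted p of 0.05 and dashed lines are the medians of all genes tested (0.11, 0.14 and 0.07). Hk2 lies near -1.9 at 8 and 20 weeks, Pkm and Pfkp peak near 1.0 at 20 weeks, and Pfkl, Aldoa and Ldha are below 0 at 34 weeks; with TMM factors Aldoa at 20 weeks changes sign to -0.01.

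Hk2, the hexokinase typical of insulin-responsive tissues, had the largest diet difference of the 10 at 8 and 20 weeks. In 8-week CD mice it ranged from 697 to 1121 CPM (median 924, n = 6), and in 8-week HFD mice from 148 to 339 CPM (median 239.9, n = 6). At 20 weeks it ranged from 688 to 2006 CPM (median 1144) in CD and from 217 to 483 CPM (median 321) in HFD mice. All CD mice lay above all HFD mice at both times. The log2 fold change was -1.95 ± 0.24 at 8 weeks (adjusted p = 6.91e-07, limma) and -1.89 ± 0.24 at 20 weeks (adjusted p = 1.89e-07). At 34 weeks CD mice held 113 to 276 CPM (median 195, n = 8) and HFD mice 85.8 to 189.9 CPM (median 135, n = 6), and the groups overlapped.

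The 34-week difference of Hk2 did not pass the threshold on library totals (-0.52 ± 0.23, adjusted p = 0.0593). It passed with TMM factors (-0.61, adjusted p = 0.0402), with edgeR on the recovered reads (-0.65, adjusted p = 0.0305) and with DESeq2 (-0.65, adjusted p = 0.0183), but stood at -0.03 once the macrophage covariate was added (adjusted p = 0.954). Leaving out any of 5 single mice also brought it past the threshold: CD mice 1 and 4 at 20 weeks, CD mice 2 and 5 at 34 weeks and HFD mouse 6 at 34 weeks. With the macrophage covariate the difference at 8 weeks was -1.56 and at 20 weeks -1.24, both past the threshold.

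In CD mice Hk2 was lower at 34 than at 8 weeks (log2 fold change -2.26 ± 0.23, adjusted p = 2.11e-09, limma). All 8 CD mice at 34 weeks, at 276 CPM or less, lay below all 6 at 8 weeks. HFD mice fell less from 8 to 34 weeks (-0.84 ± 0.24, adjusted p = 0.00429), and with the macrophage covariate that fall was -0.16 (adjusted p = 0.704). Tested as an interaction, the HFD-against-CD difference of Hk2 was 1.42 log2 units nearer to 0 at 34 than at 8 weeks (adjusted p = 0.00178) and 1.37 nearer than at 20 weeks (adjusted p = 0.00846). Ranked by mean, the 6 groups ran from 20-week CD (1215 CPM) through 8-week CD (905.7), 20-week HFD (323), 8-week HFD (244) and 34-week CD (193) to 34-week HFD mice (133), and the ranges of neighbours overlapped except between 8-week CD and 20-week HFD mice.

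Hk1, the constitutive hexokinase bound to mitochondria, and Hk3, a hexokinase of myeloid cells, moved against Hk2. Hk1 was higher in HFD mice by 0.87, 1.42 and 1.13 on the log2 scale at 8, 20 and 34 weeks, and Hk3 by 2.00, 3.58 and 2.24, all past the threshold (largest adjusted p = 0.00287, limma). Hk1 ranged from 8.07 to 14.5 CPM in 8-week CD and from 32.5 to 64.6 CPM in 34-week HFD mice. Hk3 ranged from 1.71 to 10.3 CPM in 8-week CD and from 66.3 to 208 CPM in 34-week HFD mice. Per kilobase of exon, 8-week CD mice held 152 CPM of Hk2, 1.41 of Hk1 and 1.33 of Hk3, whereas 34-week HFD mice held 22.3, 5.83 and 42.9, so that Hk3 had the highest level of the 3 there.

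**Figure D4:**
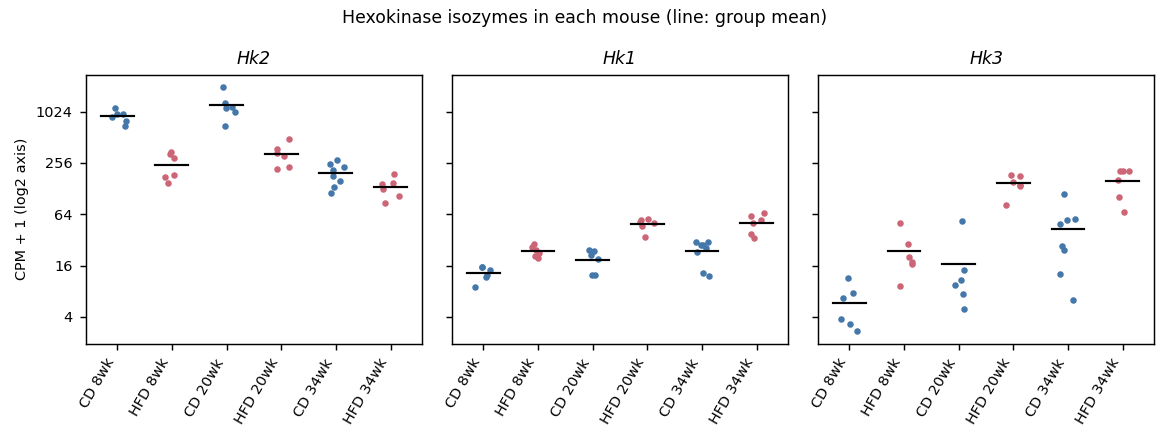
CPM + 1 of Hk2, Hk1 and Hk3 in each mouse (points, log2 axis shared by the 3 panels, blue CD and red HFD), with group means as lines. Hk2 is lower and Hk1 and Hk3 are higher in HFD than in CD mice at 8 and 20 weeks, and in 34-week HFD mice Hk3 (66.3 to 208 CPM) reaches the range of Hk2 (85.8 to 189.9 CPM).

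A ratio of isozymes within a mouse does not depend on the scaling of its library. Of 12 such ratios tested (4 pairs at 3 times, exact permutation test, two-sided, adjusted over the 12), 7 passed. Hk2 over Hk1 had a geometric mean of 69.7 in CD and 9.86 in HFD mice at 8 weeks (log2 difference -2.82, exact adjusted p = 0.00519), 63.7 and 6.44 at 20 weeks (-3.31, exact adjusted p = 0.00519), and 8.3 and 2.63 at 34 weeks (-1.66, exact adjusted p = 0.00932). At 34 weeks the ratio passed, whereas the level of Hk2 did not (-0.52, unadjusted p = 0.0267, adjusted p = 0.0593, limma). These tests are not on the same footing, because ratios were adjusted over 12 tests and levels over all genes tested. The ratio also falls when Hk1 rises, and mean Hk1 at 34 weeks was 22.7 CPM in CD and 49.8 CPM in HFD mice. The ratios were not tested with the macrophage covariate.

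Pfkp and Pfkl encode the platelet and liver forms of phosphofructokinase, the committing step. At 8 weeks Pfkp was 55.7 to 83.0 CPM (median 68.3) in CD and 65.6 to 103 CPM (median 95.1) in HFD mice, and the groups overlapped (0.40 ± 0.14, adjusted p = 0.0212, limma). This call was lost with TMM factors (0.30, adjusted p = 0.0612), with the macrophage covariate (0.29, adjusted p = 0.134) and without any of 4 single mice (CD mice 1 and 4, HFD mice 3 and 6). At 20 weeks Pfkp ran from 53.0 to 88.5 CPM (median 58.5) in CD and from 101.5 to 143 CPM (median 133) in HFD mice, with no overlap (1.00 ± 0.14, adjusted p = 7.52e-07). At 34 weeks the CD mice held 61.5 to 124 CPM (median 98.9) and the HFD mice 115 to 150.2 CPM (median 126), and the difference was 0.47 ± 0.13 (adjusted p = 0.0048), or 0.33 with the macrophage covariate (adjusted p = 0.196). With array weights the 34-week difference of Pfkp was 0.28 (adjusted p = 0.0845). The gene Pitrm1, which overlaps Pfkp, reached 125 CPM, and reads of the shared stretch cannot be assigned with certainty.

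Pfkl ran from 98.9 to 126 CPM (median 102) in 8-week CD and from 106.5 to 148 CPM (median 133) in 8-week HFD mice (0.27 ± 0.14, adjusted p = 0.125, limma). It passed as higher at that time with array weights (0.39, adjusted p = 0.000632), with the macrophage covariate (0.43, adjusted p = 0.0207) and with each time fitted separately (0.27, adjusted p = 0.0266). At 34 weeks it ran from 105 to 208 CPM (median 156) in CD and from 77.7 to 169 CPM (median 121) in HFD mice, and was lower in HFD mice (-0.38 ± 0.13, adjusted p = 0.0208). That call was lost without CD mouse 6 or HFD mouse 2 or 3 of that time (highest adjusted p = 0.111) and with the macrophage covariate (-0.18, adjusted p = 0.536). It was also lost with array weights (-0.18, adjusted p = 0.26) and with each time fitted separately (-0.38, adjusted p = 0.135). The diet difference of Pfkl at 34 weeks was 0.65 lower on the log2 scale than at 8 weeks (interaction -0.65, adjusted p = 0.0125). Pfkp over Pfkl in the same mouse had a geometric mean of 0.614 in CD and 1.23 in HFD mice at 20 weeks (log2 difference 1.00) and of 0.595 and 1.08 at 34 weeks (0.86), both with an exact permutation adjusted p of 0.00519, whereas at 8 weeks it was 0.632 and 0.694 (0.13, exact adjusted p = 0.298). Whether the diet difference of this ratio changed between times was not tested. Pfkl over the muscle form Pfkm passed at none of the 3 times (log2 differences 0.22, 0.21 and 0.10).

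Aldoa, the aldolase that splits fructose bisphosphate, had the highest level per kilobase of exon of the 10 in all 6 groups. At 8 weeks it ran from 902.5 to 1229 CPM (median 1129) in CD and from 1192 to 2133 CPM (median 1620.0) in HFD mice, a rise of 0.52 ± 0.16 (adjusted p = 0.00928, limma) that did not pass with TMM factors (0.42, adjusted p = 0.0576). At 20 weeks the difference was 0.21 ± 0.16 (adjusted p = 0.272), which passed as higher with array weights (0.27, adjusted p = 0.0167) and with the macrophage covariate (0.53, adjusted p = 0.0385) and was -0.01 with TMM factors. At 34 weeks the order had turned, with 1390.0 to 3175 CPM (median 2144) in CD and 1154 to 1864 CPM (median 1693) in HFD mice (-0.48 ± 0.15, adjusted p = 0.011), a call lost with the macrophage covariate (-0.24, adjusted p = 0.428). The call was also lost with array weights (-0.33, adjusted p = 0.0607) and with each time fitted separately (-0.48, adjusted p = 0.0752). The difference between 34 and 8 weeks passed as an interaction (-1.01, adjusted p = 0.00108). The interaction against 20 weeks (-0.69, adjusted p = 0.0398) passed more narrowly and was lost with TMM factors (-0.56, adjusted p = 0.127) and without any of 12 single mice.

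Gapdh, which makes the NADH of the pathway and is often used as a reference gene, passed in no diet comparison on library totals with all mice (0.41 ± 0.17 with adjusted p = 0.0532 at 8 weeks, -0.02 ± 0.17 with adjusted p = 0.94 at 20 weeks, and -0.19 ± 0.16 with adjusted p = 0.344 at 34 weeks, limma). At 8 weeks it did pass as higher with array weights (0.52, adjusted p = 0.000175), with the macrophage covariate (0.67, adjusted p = 0.0022), with each time fitted separately (0.41, adjusted p = 0.0102) and without any of 7 single mice (adjusted p of 0.0322 to 0.0447). It did rise with time in CD mice, from 459 to 642 CPM (median 572) at 8 weeks to 631.5 to 1744 CPM (median 940.1) at 34 weeks (0.89 ± 0.16, adjusted p = 2.18e-05). Of 6 reference genes listed, 3 were higher in HFD mice at 8 weeks, 3 were higher and 1 lower at 20 weeks, and 1 was higher at 34 weeks. Among all genes tested, 29.8%, 38.3% and 27.5% were higher and 15.1%, 18.7% and 15.7% lower at the 3 times. Actb was higher by 0.59 and 0.43 at 20 and 34 weeks, Ppia by 0.39 and 0.29 at 8 and 20 weeks and B2m by 0.67 and 0.50 at 8 and 20 weeks. Tbp was lower, at log2 -0.33 at 20 weeks. The reference genes other than Gapdh were read from the fit on library totals only.

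Pgk1, the first ATP-yielding enzyme of the pathway, was higher in HFD mice at 8 and 20 weeks without overlap. It ran from 56.3 to 63.8 CPM (median 61.3) in CD and from 70.9 to 105 CPM (median 87.7) in HFD mice at 8 weeks (0.51 ± 0.11, adjusted p = 0.000737, limma), and from 60.7 to 79.1 CPM (median 67.9) and 83.8 to 117 CPM (median 107) at 20 weeks (0.58 ± 0.11, adjusted p = 7e-05). At 34 weeks the ranges overlapped, at 90.8 to 141 CPM (median 119) in CD and 117 to 171 CPM (median 132) in HFD mice. The 34-week difference (0.27 ± 0.11, adjusted p = 0.0385) was lost with TMM factors (0.18, adjusted p = 0.201), with the macrophage covariate (0.20, adjusted p = 0.371) and without any of 6 single mice (CD mice 1, 3, 7 and 8 and HFD mice 4 and 5 of that time, highest adjusted p = 0.122). It was also lost with each time fitted separately (0.27, adjusted p = 0.134).

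Pgam1, which moves the phosphate of phosphoglycerate, was higher in HFD mice at all 3 times on library totals. Its medians in CD and HFD mice were 56.2 and 74.4 CPM at 8 weeks (0.34 ± 0.11, adjusted p = 0.011, limma), 56.4 and 75.3 CPM at 20 weeks (0.40 ± 0.11, adjusted p = 0.00173), and 62.9 and 82.0 CPM at 34 weeks (0.31 ± 0.10, adjusted p = 0.013), with overlapping ranges each time. With TMM factors none of the 3 passed (0.23, 0.19 and 0.22, with adjusted p of 0.12, 0.182 and 0.118). The 34-week difference also did not pass with each time fitted separately (0.31, adjusted p = 0.0725).

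Eno1, the enolase found in most tissues, was higher in HFD mice at 8 weeks, at 343 to 486 CPM (median 423.5) against 222 to 307 CPM (median 264) in CD mice, without overlap (0.65 ± 0.17, adjusted p = 0.00271, limma). At 20 weeks the difference was 0.36 ± 0.17 (adjusted p = 0.0678), which passed with array weights (0.50, adjusted p = 9.06e-05), with the macrophage covariate (0.73, adjusted p = 0.00697), with each time fitted separately (0.36, adjusted p = 0.0311) and without any of 5 single mice. At 34 weeks CD mice held 391.5 to 1037 CPM (median 598) and HFD mice 427 to 659 CPM (median 565), a difference of -0.19 ± 0.16 (adjusted p = 0.335). The diet difference at 34 weeks was lower than at 8 weeks by the interaction test (-0.84, adjusted p = 0.00704).

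Pkm, which encodes the M1 and M2 forms of pyruvate kinase that gene-level counts do not part, rose with both diet and time. It ran from 237 to 285 CPM (median 265) in CD and from 305 to 464 CPM (median 363) in HFD mice at 8 weeks (0.48 ± 0.15, adjusted p = 0.00818, limma). At 20 weeks it ran from 239 to 423 CPM (median 338) in CD and from 472 to 862 CPM (median 692) in HFD mice (1.04 ± 0.15, adjusted p = 6.14e-07), and neither time showed overlap. At 34 weeks the ranges were 525.6 to 953 CPM (median 662) and 711 to 1142 CPM (median 951), and they overlapped (0.49 ± 0.14, adjusted p = 0.0047). With the macrophage covariate the 34-week difference was 0.39 (adjusted p = 0.152). Ranked by mean, 34-week HFD mice (941 CPM) came first, followed by 20-week HFD (682), 34-week CD (672), 8-week HFD (371), 20-week CD (331) and 8-week CD mice (263.5), and the ranges of neighbours overlapped except between 34-week CD and 8-week HFD mice. For the other 8 enzymes apart from Hk2 and Pkm, the ranges of every pair of neighbouring groups in such a ranking overlapped.

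Ldha, the lactate dehydrogenase subunit that favours lactate, stood at 717 to 892 CPM (median 805) in CD and 751 to 1222 CPM (median 1044) in HFD mice at 8 weeks (0.27 ± 0.15, adjusted p = 0.128, limma), and passed as higher with array weights (0.43, adjusted p = 0.000306). At 20 weeks the difference was -0.23 ± 0.15 (adjusted p = 0.178), which passed as lower with TMM factors (-0.45, adjusted p = 0.0182) and with edgeR (-0.44, adjusted p = 0.0166). At 34 weeks it was lower in HFD mice, at 724 to 1367 CPM (median 1043) against 1047 to 1740.0 CPM (median 1322) (-0.40 ± 0.14, adjusted p = 0.0176), a call lost without HFD mouse 2 or 3 of that time (-0.33 and -0.31, adjusted p of 0.0668 and 0.0804) and with the macrophage covariate (-0.26, adjusted p = 0.363). That call was also lost with array weights (-0.14, adjusted p = 0.401) and with each time fitted separately (-0.40, adjusted p = 0.118). The 34-week and 8-week differences differed (interaction -0.67, adjusted p = 0.0114). Ldhb, the subunit of oxidative tissues, was lower in HFD mice, at log2 -0.72 at 20 weeks and -0.93 at 34 weeks, so that Ldha over Ldhb was higher in HFD mice by 0.49 on the log2 scale at 20 weeks (geometric mean 22.6 in HFD mice, exact permutation adjusted p = 0.0111) and by 0.53 at 34 weeks (16.6 in CD and 24.0 in HFD mice, exact adjusted p = 0.00519). At 8 weeks that ratio did not pass (0.39, exact adjusted p = 0.0974).

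**Figure D5:**
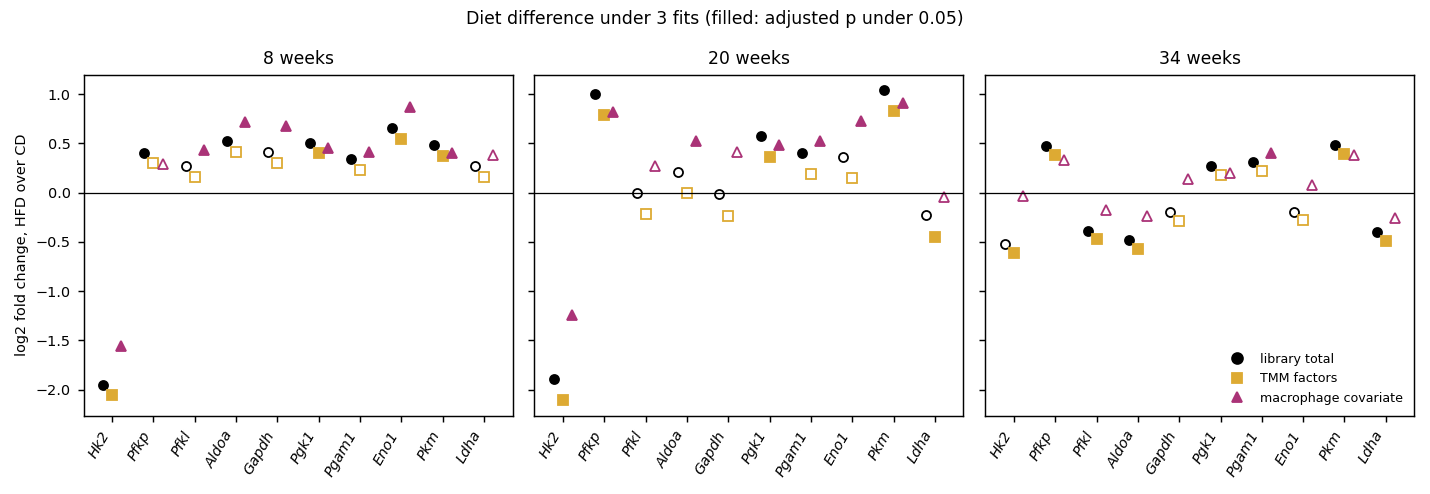
Log2 fold change of each enzyme, HFD against CD, at the 3 times under library totals (circles), TMM factors (squares) and with the mean macrophage marker level as a covariate (triangles), filled where the adjusted p was under 0.05. Hk2 keeps a filled point in all 3 fits at 8 and 20 weeks, and at 34 weeks it runs from -0.61 with TMM factors to -0.03 with the covariate; Pfkl, Aldoa and Gapdh at 20 weeks lie on both sides of 0.

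The enzymes were next compared between times within a diet. From 8 to 20 weeks none passed in CD mice in limma, edgeR or DESeq2, where 1.7% of all genes rose and 1.88% fell in limma, and 2 of the 10 (Gapdh and Pkm) had an unadjusted p under 0.05. With the macrophage covariate 1 passed. In CD mice 8 of the 10 rose from 8 to 34 weeks, against 40.1% of all genes, and Hk2 fell, against 24.6%. The rises were 1.33 ± 0.14 for Pkm (adjusted p = 3.03e-09, limma), 1.23 ± 0.16 for Eno1, 0.99 ± 0.15 for Aldoa, 0.90 ± 0.11 for Pgk1, 0.89 ± 0.16 for Gapdh, 0.70 ± 0.14 for Ldha, 0.55 ± 0.13 for Pfkl and 0.46 ± 0.13 for Pfkp, with adjusted p of 0.0033 or less. Pgam1 did not pass (adjusted p = 0.053). In HFD mice 2 rose from 8 to 20 weeks (Pkm by 0.87 ± 0.15 and Pfkp by 0.54 ± 0.14), against 21.2% of all genes, and none fell, against 15.3%. From 8 to 34 weeks 3 rose (Pkm by 1.33 ± 0.15, Pgk1 by 0.66 ± 0.11 and Pfkp by 0.53 ± 0.14), against 31.7%, and Hk2 fell, against 20.8%. The rises of Pfkp did not pass with the macrophage covariate in either diet. With that covariate, calls over all genes in HFD mice fell from 3772 to 455 between 8 and 20 weeks. They fell from 5432 to 1713 between 8 and 34 weeks, and in CD mice from 6696 to 5567.

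The interaction terms summarise how the diet difference itself changed. Between 20 and 8 weeks none of the 10 passed in limma, edgeR or DESeq2, against 4.49% of all genes in limma, and 3 (Pfkp, Pkm and Ldha) had an unadjusted p under 0.05. Between 34 and 8 weeks 5 passed (Hk2 upwards, and Pfkl, Aldoa, Eno1 and Ldha downwards), against 28.8%, and between 34 and 20 weeks Hk2 and Aldoa passed, against 10.5%. CD and HFD mice did not overlap for 4 of the 10 at 8 weeks (Hk2, Pgk1, Eno1 and Pkm), against 22.8% of all genes, for 4 at 20 weeks (Hk2, Pfkp, Pgk1 and Pkm), against 37.2%, and for none at 34 weeks, against 2.46%.

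Within the groups the enzymes did not vary as 1 block. As a description over the 38 mice, taking deviations from each group's mean of log2 values, Gapdh and Eno1 had a Pearson r of 0.93, Aldoa and Gapdh 0.84 and Aldoa and Eno1 0.83, while Hk2 had -0.57 with Pgk1 and -0.52 with Pkm. The mean of the other 9 correlated at 0.93 with Eno1 and at 0.88 with Gapdh, but at -0.10 with Pfkp and -0.25 with Hk2. All these values come from the same libraries and share their depth. In the same deviations the mean macrophage marker level had an r of -0.56 with Hk2, -0.53 with Gapdh, -0.45 with Eno1, -0.43 with Aldoa and -0.41 with Pfkl, and of 0.28 with Pfkp and 0.20 with Pkm. The mean adipocyte marker level had an r of 0.60 with Pfkl, 0.52 with Hk2, 0.475 with Ldha, 0.46 with Aldoa, 0.39 with Eno1 and 0.37 with Gapdh. It had 0.15 with Pgam1, -0.09 with Pgk1, -0.30 with Pfkp and -0.34 with Pkm. CD mouse 5 at 34 weeks was the lowest of its group for Aldoa, Gapdh, Eno1, Pfkl and Ldha.

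The other enzymes of the pathway, from a list of 18 of which 9 passed the filter, moved in both directions: 3, 5 and 4 were higher and 1, 2 and 2 lower in HFD mice at the 3 times. Of all genes tested, 29.8%, 38.3% and 27.5% were higher and 15.1%, 18.7% and 15.7% lower. Tpi1, which follows aldolase, was higher by 1.17 ± 0.19 at 8 weeks (adjusted p = 2.51e-05, limma) and 0.64 at 20 weeks but not at 34 weeks (-0.29, adjusted p = 0.197). Gpi1, which follows hexokinase, was higher by 0.33 and 0.24 at 20 and 34 weeks. Eno2, the neuronal enolase, had a median of 2.28 CPM in CD and 23.4 CPM in HFD mice at 20 weeks (2.58 ± 0.37, adjusted p = 7.72e-07), and Eno3, the muscle enolase, was lower, at log2 -0.85 at 8 weeks and -0.82 at 20 weeks. Pgk2, Pgam2 and Pklr were too low to be tested.

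Of 8 transporters of glucose, pyruvate and lactate, 1, 1 and 2 were higher and 3, 6 and 4 lower in HFD mice at the 3 times. The shares of all genes tested were 29.8%, 38.3% and 27.5% higher and 15.1%, 18.7% and 15.7% lower. Slc2a4, the insulin-responsive glucose transporter, was lower, at log2 -0.64 at 20 weeks and -0.86 at 34 weeks. Slc2a1, the basal transporter, was lower, at log2 -1.02 and -0.53 at 8 and 20 weeks and higher by 0.71 at 34 weeks, and in CD mice it fell by 2.34 ± 0.20 from 8 to 34 weeks (adjusted p = 9.25e-11, limma), the same sign as Hk2. Slc16a3, a lactate exporter, was higher by 1.95 and 1.26 at 20 and 34 weeks. Both subunits of the mitochondrial pyruvate carrier were lower at 34 weeks (Mpc1 -0.86, Mpc2 -0.78).

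Among 9 tested regulators of glycolytic flux, Pdk2, a kinase that restrains pyruvate dehydrogenase, was lower at all 3 times (-1.02, -1.42 and -0.85), and Pfkfb4, which sets the phosphofructokinase activator fructose 2,6-bisphosphate, was higher by 1.27 and 1.51 at 8 and 20 weeks. Of 6 transcription factors none was higher and 5, 3 and 2 were lower. All genes tested gave 29.8%, 38.3% and 27.5% higher and 15.1%, 18.7% and 15.7% lower at the 3 times. Hif1a was lower, at log2 -0.92 at 8 weeks and -1.24 at 20 weeks but not at 34 weeks (0.24, adjusted p = 0.243, limma), and in CD mice it fell by 1.63 ± 0.17 from 8 to 34 weeks. Its partner Arnt was also lower at 8 and 20 weeks, at -0.87 and -0.82, and Mlxipl was lower at all 3 times (-1.09, -1.13 and -1.21). Over the 38 mice, again as deviations from group means, Hk2 had an r of 0.65 with Hif1a and 0.60 with Arnt. With the other factors listed it had 0.49 (Myc), 0.47 (Mlxipl), 0.17 (Epas1) and -0.001 (Mlx). Genes of the other lists reached a similar size, such as Gfpt1 (0.61), Hk3 (-0.61) and Pfkfb4 (-0.61), and these values describe likeness only. Of 11 tested genes of branches and reverse steps, 3, 3 and 1 were higher and 1, 5 and 5 lower, to be read against the same all-gene shares. G6pdx, the entry to the pentose phosphate pathway, was higher by 0.57 and 0.60 at 8 and 20 weeks. Pck1, which feeds glycerol 3-phosphate from pyruvate, was lower, at log2 -1.35 and -1.45 at 20 and 34 weeks.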

How the data were processed

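PolyA RNA of the adipocyte fraction was sequenced from stranded libraries as 3 technical replicates for each of 38 separate mice, 114 samples in GEO, merged to 1 column per mouse. Per the methods and the submitters' processing notes, the authors aligned reads to mm10 with STAR 2.5.2b, counted them over GENCODE exons with featureCounts (Subread 1.5.1) and dropped genes without an Entrez ID. The deposited CPM values sum to 1000000 in each mouse, so TMM factors, which the methods name, are not visible in them. Dividing by the smallest step gave whole reads for 100.0% of 596609 values above 0, within 0.1 reads, and these reads were used for edgeR 4.0.16 and DESeq2 1.42.0 as alternatives. No column belonged to another sample. Columns name the diet, the time and a mouse number.

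The test was limma 3.58.1 (R 4.3.3, trend, two-sided) on log2(CPM + 1), with all 6 groups in 1 fit, 32 residual degrees of freedom, genes with a mean above 2 on that scale, Benjamini-Hochberg adjustment and a threshold of 0.05. A fold change on this scale understates the change of low genes. Isozyme ratios were tested by exact permutation over mice. The statistics were tested on simulated data first. The 10 enzymes, the further lists of enzymes, transporters, regulators, factors and cell type markers and the genes named were chosen with earlier results of these data known. The named genes are all 10 enzymes and members of those lists, and Adgre1 and Tigar were not analysed here. Copies of Aldoa, Pgk1, Pgam1 and Ldha elsewhere in the genome held at most 1.64 CPM. A near-identical retrocopy of Eno1 was not analysed here. Alternatives were the pseudocount, the filter, median-of-ratios and TMM factors, array weights, a replicate block, a macrophage covariate, each time fitted separately, edgeR, DESeq2 and leaving out each mouse. For single genes they were read for the 10 enzymes only. Values of the other genes come from library totals and were not checked for scaling or for other cells.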

Additional observations from a re-analysis of the deposited data

Results flagged for a closer look

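The diet difference itself differed between time points for 5 enzymes, by an interaction term in limma with p-values adjusted over all genes tested. For Hk2 the HFD-against-CD log2 difference was 1.42 higher at 34 than at 8 weeks (adjusted p = 0.00178) and 1.37 higher at 34 than at 20 weeks (adjusted p = 0.00846). For Pfkl (-0.65, adjusted p = 0.0125), Eno1 (-0.84, adjusted p = 0.00704) and Ldha (-0.67, adjusted p = 0.0114) it was lower at 34 than at 8 weeks. For Aldoa it was lower at 34 than at 8 weeks (-1.01, adjusted p = 0.00108) and than at 20 weeks (-0.69, adjusted p = 0.0398). The 34-week CD mice, which were also the oldest controls, had a mean level of Hk2 of 193 CPM against 905.7 CPM in 8-week CD mice, and of Aldoa of 2261 against 1109 CPM.

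Pfkp in HFD mouse 4 at 20 weeks (101.5 CPM) lay apart from the other 5 mice of its group, the nearest of which held 132 CPM, so that the gap was 0.776 of the whole range of the group. Over 60 groups tested, this was the 1 such mouse, and chance alone is expected to set apart about 1 group in 20.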

How the results depend on the processing

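Of 41 calls for single enzymes, none changed sign under any alternative, and 1870 of their 1946 values under alternatives still passed in the same direction. Most of these values come from fits that left out 1 mouse and so stay close to the fit with all mice. The share that passed is therefore no measure of how far the calls depend on processing. The count higher in HFD mice was 6 at 8 weeks and became 2 with median-of-ratios factors, 3 with TMM factors, 4 with edgeR or DESeq2, 7 with the macrophage covariate, 8 with each time fitted separately and 9 with array weights. At 20 weeks it was 4 and became 3 with those factors, edgeR or DESeq2, 5 with each time fitted separately and 6 with array weights or the covariate. At 34 weeks it was 4 and became 2 with median-of-ratios factors, TMM factors, each time fitted separately, edgeR and DESeq2, and 1 with the macrophage covariate. Over all genes tested, 3083, 3957 and 2840 were higher in HFD mice at 8, 20 and 34 weeks on library totals. With array weights these became 4473, 4881 and 2539, and with the covariate 2259, 1881 and 350. The count lower was 1 at 20 weeks and became 2 with both kinds of factor, each time fitted separately, edgeR and DESeq2 (Ldha joined). At 34 weeks it was 3 and became 1 with array weights and 0 with the covariate or each time fitted separately. The 1 with array weights was Hk2 (-0.65, adjusted p = 0.0395, limma), which was not among the 3. Over all genes tested, calls in either direction at 34 weeks went from 4468 to 597 with the covariate and to 2457 with each time fitted separately. In CD mice from 8 to 20 weeks 1 enzyme was called with the covariate instead of 0, and in HFD mice 6 with array weights instead of 2. All genes gave 874 instead of 370 in CD mice, and 6392 instead of 3772 in HFD mice. The interaction of 20 against 8 weeks gave 6 with array weights instead of 0, where all genes gave 4263 instead of 464. The interaction of 34 against 20 weeks gave 2. This count became 1 without a filter, with both kinds of factor and with edgeR, and 4 with array weights. All genes gave 3407 for that interaction with array weights instead of 1089.

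Leaving out single mice gave 1 to 4 lower at 34 weeks (1 without HFD mouse 2 or 3 of that time), 0 to 2 for the interaction of 20 against 8 weeks (2 without CD mouse 1 or HFD mouse 4 at 20 weeks) and 1 to 4 for that of 34 against 20 weeks (4 without CD mouse 1 or HFD mouse 4 at 20 weeks or CD mouse 5 at 34 weeks). Other counts moved less: 5 to 7, 4 to 5 and 3 to 4 higher in HFD mice at the 3 times. Of the isozyme ratios 7 to 8 passed: Ldha over Ldhb at 8 weeks ran from 0.289 to 0.475 (past the threshold without CD mouse 6) and Pfkl over Pfkm at 20 weeks from 0.157 to 0.291 (past it without HFD mouse 4).

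Uncalled diet differences that changed sign were Pfkl at 20 weeks (0.004483 with array weights, 0.274 with the covariate, -0.0508 to 0.0396 without single mice), Aldoa at 20 weeks (-0.007342 with TMM factors), Gapdh at 20 weeks (0.0893 and 0.417, and -0.0716 to 0.0888 without single mice), Gapdh at 34 weeks (0.0601 and 0.136) and Eno1 at 34 weeks (0.03995 and 0.08195), each pair being array weights and covariate. Mouse numbers were not taken to pair the groups. Over 90 same-number pairs the correlation of deviations ran from -0.676 to 0.55 (median -0.068), and 30 pairs lay above 0.1. Pairs with different numbers were not examined, so these values do not settle whether the numbers carry a shared order. With the replicate number as a block, 3 rather than 4 enzymes were higher in HFD mice at 34 weeks. The causes were not tested. Each of the 10 lay at 49.7 CPM or more in every mouse, so depth limited mainly the low enzymes that could not be tested.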

Other observations

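Within groups, the genes whose log2 levels were most like the mean of the 10 enzymes over the 38 mice, by the Pearson r of deviations from group means, were Me1 (0.904), Slc25a1 (0.881), Acss2 (0.865), Adk (0.849) and Hsd17b12 (0.846). Me1 supplies NADPH, Slc25a1 exports citrate from mitochondria and Acss2 makes acetyl-CoA from acetate, all of which are steps around fatty acid synthesis. The genes most like Hk2 were other ones: Stk40 (0.84), Foxc1 (0.833), Slc12a2 (0.83), Ptp4a1 (0.825) and Il15ra (0.8). These values share libraries and depth, and they describe likeness only.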
